A study of Mus musculus with 42 samples.

Results

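The comparison was between proliferating microglia of older and younger wild-type (WT) mice. Ki67 is a nuclear protein of cycling cells, and Ki67+ microglia were sorted from brains of WT mice at 12 months (4 libraries) and 4 months (5 libraries), which together are 9 of the 42 libraries of the series. All mice were male, on a C57BL/6 background, and the WT mice were littermates of APP/PS1 mice, a transgenic line that deposits beta-amyloid. CD11b+/CD45+ cells were fixed in paraformaldehyde, stained for Ki67 inside the nucleus and sorted in small numbers before RNA sequencing. A gene was tested where its mean was at least 7 in either age group, on the log2 scale of the deposited values, and 12813 of 19151 genes met this. WT mice at 12 and 4 months also gave 3 and 5 Ki67- libraries, and APP/PS1 mice gave 4 and 4 Ki67+ libraries, and these were used to set the age difference beside that of other cells. WT mice at 6 months gave 2 Ki67+ libraries, which are described beside the other ages without a test. The labels do not say whether libraries came from separate mice, so p-values measure the spread between these libraries, which may be technical.

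Microglia are the resident macrophages of the brain. In the healthy brain they express a homeostatic set of genes, including the purinergic receptors P2ry12 and P2ry13 and the fractalkine receptor Cx3cr1, and they renew themselves by slow division. With age and around amyloid, microglia are known for a second set, often called disease-associated, with the protease inhibitor Cst7, the lipase Lpl, the receptor tyrosine kinase Axl and the lipid carrier Apoe, and for higher class II major histocompatibility complex (MHC) genes, which present peptides to CD4 T cells. How proliferating microglia of normal mice differ between ages is the question that the comparison addresses.

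Microglial markers were among the most highly expressed genes at both ages. Cx3cr1 had a mean of 13.73 at 12 months and 14.31 at 4 months, at percentile 99.6 and 99.7 of the tested genes, and Tmem119 a mean of 13.69 and 14.25. Astrocyte markers were also high. The mean of 17 of them was 11.05 to 11.44 in the 4-month and 11.42 to 11.69 in the 12-month Ki67+ libraries, against 7.90 to 8.35 and 8.94 to 9.06 in WT Ki67- libraries of the same ages, and the glutamate transporter Slc1a2 had a mean of 13.38 and 13.69 in Ki67+ libraries. The Ki67+ and Ki67- libraries thus differed in more than the cycle marker, and the part of astrocyte RNA in the results was not tested.

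The proliferation gene Mki67 did not separate the groups. Its values at 4 months were 8.38, 8.29, 6.73, 8.17 and 8.58, and at 12 months 7.82, 7.76, 7.69 and 7.63. The 12-month libraries lay inside the range of the 4-month libraries, which was set by a single low library (two-sided exact permutation test, p = 0.484, smallest possible p 0.00794). The median over all genes in each library did not separate the ages either (two-sided exact permutation test, p = 0.802). Total counts and depth are unknown, because the deposited values keep no counts.

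At 12 months 66 genes were higher and 61 lower than at 4 months (limma, FDR 0.05), which was 0.515% and 0.476% of the genes tested and 0.991% together. At an unadjusted p under 0.05 there were 1714 genes, or 13.4%. The genes that rose differed by 0.69 to 2.74 on the log2 scale (median 1.09) and those that fell by -0.73 to -1.80 (median -1.14), while the median difference over all genes was 0.02. The values of the 2 ages did not overlap for 120 of the 127 genes called, and for 12.8% of all genes. Of the genes called, 53 had a mean of at least 7 at both ages, 32 were tested only through their level at 12 months and 42 only through their level at 4 months, so many calls concern genes near the lower limit of the test. In bulk samples a lower share of cells of a type and less RNA per cell cannot be told apart, and this holds for each gene below. The count of calls was 42, 58 and 76 without 12-month replicate 1, 2 or 3, in that order, and 41 of the 127 genes were called in each of the 9 fits that leave out 1 library. The count was 808 when the 9 libraries were fitted alone. The authors' correction left 10 residual directions missing from the values, and that fit could not count all of them as spent. Its count is therefore not comparable with the 127.

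**Figure D1:**
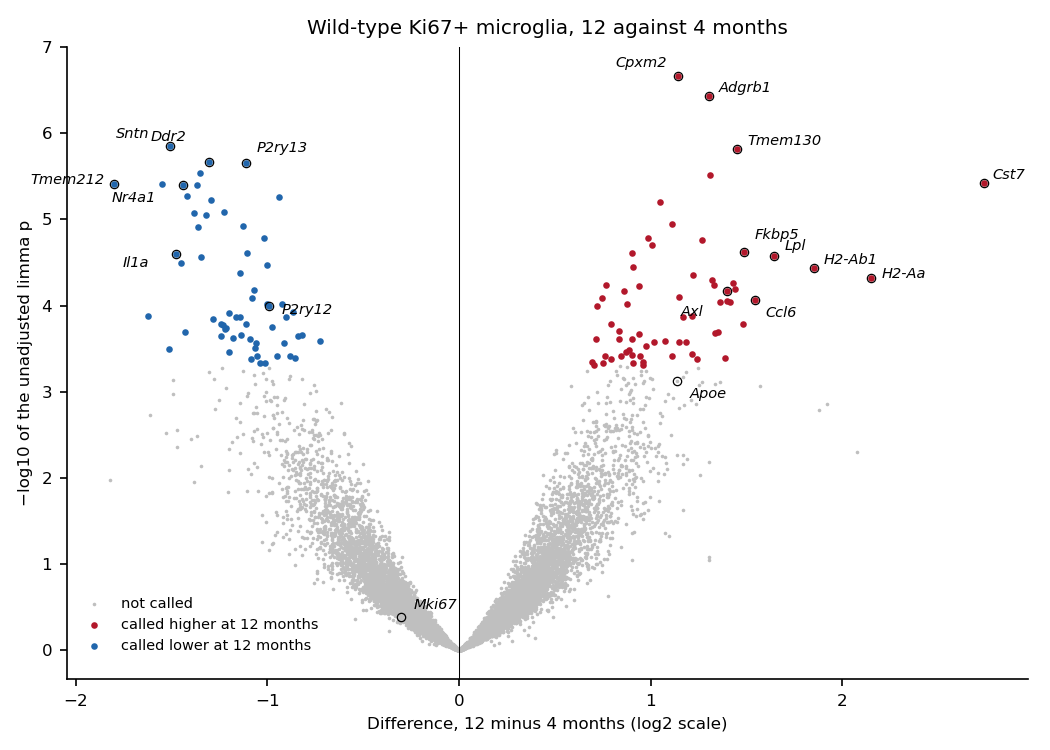
Each point is a gene, with the difference between WT Ki67+ microglia at 12 (n = 4) and 4 months (n = 5) on the horizontal axis (log2 scale) and the negative log10 of the unadjusted limma p on the vertical axis. Red and blue points are the 66 genes called higher and the 61 called lower at an FDR of 0.05, grey points were not called, and circles mark labelled genes, of which Mki67 and Apoe were not called.

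Several genes of the disease-associated and aged microglia list rose. Of 33 members tested, 6 rose and 0 fell, against 0.515% and 0.476% of all genes. A difference above 0 was found in 30 members, against 52.6% of all genes. The median difference of the list was 0.54. The ages did not overlap, with 12 months higher, for 16 members, against 7.37% of all genes. The 6 members were Cst7, Lpl, Ccl6, Axl, Ank and Baiap2l2.

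Cst7, which encodes cystatin F, an inhibitor of lysosomal cysteine proteases, had the largest difference of all genes called. It was 7.86, 9.13, 7.85, 8.40 and 8.16 in the 4-month libraries and 10.93, 10.79, 9.58 and 12.76 in the 12-month libraries. Every 12-month library was above every 4-month library, although the 12-month libraries spread over more than 3 log2 units. The difference was 2.74 ± 0.48 (SE), or 6.68-fold (limma, adjusted p = 0.00394), and in the 2 libraries of 6 months Cst7 was 6.80 and 6.62. Lpl, lipoprotein lipase, was 8.34, 8.47, 8.51, 9.11 and 8.77 at 4 months and 10.30, 10.02, 10.03 and 10.78 at 12 months. Its groups were separate by a wide margin, with a difference of 1.64 ± 0.33 (SE, adjusted p = 0.0107 with limma). Axl, a receptor that takes part in the uptake of dead cells, was 8.88, 8.70, 8.48, 8.46 and 8.61 at 4 months and 9.95, 10.25, 9.69 and 10.21 at 12 months. The difference was 1.40 ± 0.30 (SE, adjusted p = 0.0178 with limma), and without 12-month replicate 2 the adjusted p was 0.0663.

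The chemokine Ccl6 rose by 1.54 ± 0.34 (SE, adjusted p = 0.021 with limma), from 10.18 ± 0.58 (SD, n = 5) to 11.72 ± 0.38 (SD, n = 4). This call was lost without 12-month replicate 1 or replicate 4 (highest adjusted p 0.0592). Baiap2l2, a membrane-bending protein, rose by 0.91 ± 0.19 (SE, adjusted p = 0.0128 with limma) from a low level of 6.44 to 7.35. It was tested only through its level at 12 months. Ank, a transporter of pyrophosphate, rose by 1.39 ± 0.35 (SE, adjusted p = 0.0448 with limma). The call of Ank held in 1 of the 9 fits that leave out a library.

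The other members of the list were not called. Apoe was 14.66, 15.60, 15.88, 15.66 and 15.94 at 4 months and 16.68, 16.54, 16.52 and 17.02 at 12 months, so its groups did not overlap, with a difference of 1.14 ± 0.30 (SE, adjusted p = 0.0609 with limma, and 0.0514 to 0.151 over the fits that leave out a library). Spp1 (2.08), Igf1 (1.57), Itgax (1.36), Ch25h (1.18) and Gpnmb (1.14) also had differences above 1 and separate groups without passing the test (limma, adjusted p 0.15, 0.0628, 0.0612, 0.0541 and 0.153). The receptor Trem2 and its adaptor Tyrobp, through which much of this set is induced, had differences of 0.36 ± 0.21 and 0.49 ± 0.24 (SE, limma, adjusted p = 0.459 and 0.36). Values of Trem2 overlapped between the ages.

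**Figure D2:**
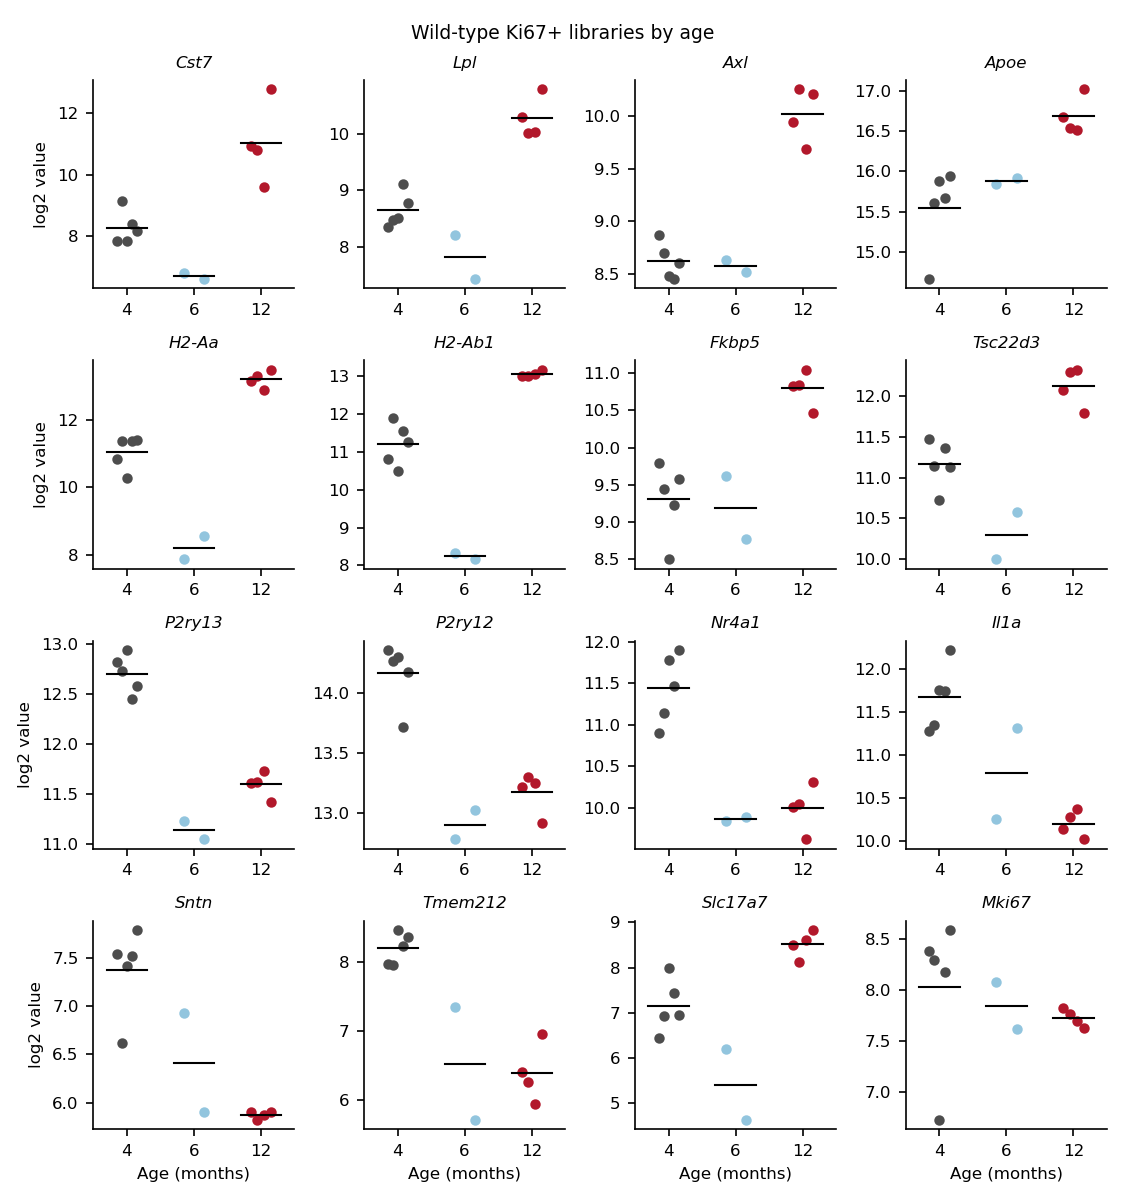
Log2 values of 16 genes in each WT Ki67+ library at 4 (n = 5), 6 (n = 2) and 12 months (n = 4), with a bar at the mean of the group; each panel has its own vertical axis, which does not start at 0. All 12-month values lie above the 4-month values for Cst7, Lpl, Axl, Apoe, H2-Aa, H2-Ab1, Fkbp5, Tsc22d3 and Slc17a7 and below them for P2ry13, P2ry12, Nr4a1, Il1a, Sntn and Tmem212, and those of Mki67 overlap.

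The class II MHC genes H2-Aa and H2-Ab1 rose, and class I genes did not pass the test. Of 20 genes tested for MHC and antigen presentation, 2 rose and 0 fell, against 0.515% and 0.476% of all genes, with a median difference of 0.36. H2-Aa, the alpha chain of the I-A molecule, was 10.83, 11.38, 10.26, 11.36 and 11.39 at 4 months and 13.14, 13.28, 12.89 and 13.47 at 12 months. The groups were more than 1 log2 unit apart, and the difference was 2.15 ± 0.45 (SE), or 4.44-fold (limma, adjusted p = 0.0155). Its partner H2-Ab1, the beta chain, was 10.82, 11.89, 10.49, 11.55 and 11.25 at 4 months and 12.99, 12.99, 13.05 and 13.17 at 12 months. The 12-month libraries were nearly equal to each other, and the difference was 1.85 ± 0.38 (SE, adjusted p = 0.0128 with limma). Both calls held in all 9 fits that leave out a library. Cd74, the invariant chain that guides class II molecules, and H2-Eb1, the I-E beta chain, had differences of similar size, 1.92 and 1.88, with separate groups and adjusted p-values of 0.0815 and 0.0914 (limma). The peptide loading genes H2-DMa (0.39) and H2-DMb1 (0.27), the class I genes H2-K1 (0.08) and H2-D1 (0.45) and B2m (0.34) were not called.

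Class II genes share a promoter architecture, the conserved X and Y boxes, to which the RFX complex, NF-Y and the coactivator CIITA bind. The promoter windows of H2-Aa and H2-Eb1 are shown because these genes moved by a similar amount. Each window holds 250 bases before the annotated start and 50 after it, 5′ to 3′ on the gene's strand, from RefSeq on GRCm38.p6. H2-Aa lies at chr17:34287774-34288073 on the minus strand and H2-Eb1 at chr17:34305617-34305916 on the plus strand, and capitals mark the Y box letters CTGATTGG.
H2-Aa: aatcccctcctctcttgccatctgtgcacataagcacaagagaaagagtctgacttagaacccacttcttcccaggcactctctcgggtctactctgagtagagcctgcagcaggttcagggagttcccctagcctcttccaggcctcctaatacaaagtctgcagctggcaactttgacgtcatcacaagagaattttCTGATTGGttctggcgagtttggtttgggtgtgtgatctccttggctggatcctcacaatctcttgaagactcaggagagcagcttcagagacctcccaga
H2-Eb1: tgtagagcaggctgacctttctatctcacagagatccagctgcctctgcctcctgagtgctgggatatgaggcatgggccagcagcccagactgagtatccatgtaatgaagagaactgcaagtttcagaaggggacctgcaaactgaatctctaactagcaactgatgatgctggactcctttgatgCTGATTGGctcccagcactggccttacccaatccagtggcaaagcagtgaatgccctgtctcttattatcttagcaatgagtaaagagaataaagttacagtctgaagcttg
The letters start 51 bases before the start of H2-Aa and 62 bases before that of H2-Eb1. Searched on both strands, CTGATTGG was present in 3 of 6 windows of the class II genes of the list, against 4.1% of all 32851 windows. Among windows of the genes called higher it was present in 1 of 59, that of H2-Aa, and among those of the genes called lower in 2 of 58. No window of H2-Ab1 or Cd74 was used here. A match is a description of the letters and not evidence of binding. Nfyc, a subunit of NF-Y, was among the genes called higher, with a difference of 1.22 (limma, adjusted p = 0.0145), and was named after its value was seen.

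Of 20 genes that respond to glucocorticoids, 4 rose and 0 fell, against 0.515% and 0.476% of all genes, with a median difference of 0.34. Glucocorticoids are adrenal hormones that act through the nuclear receptor Nr3c1. Fkbp5, a co-chaperone that restrains this receptor, was 9.80, 9.44, 8.51, 9.23 and 9.58 at 4 months and 10.83, 10.84, 11.05 and 10.47 at 12 months. All 12-month libraries were higher, with a difference of 1.49 ± 0.30 (SE, adjusted p = 0.0104 with limma). Zbtb16, a zinc finger transcription factor, rose by 1.43 ± 0.30 (SE, adjusted p = 0.0167 with limma) from 7.13 ± 0.53 (SD, n = 5) to 8.56 ± 0.24 (SD, n = 4), and was not called without 12-month replicate 1 or replicate 3. The metallothionein Mt2 (1.11 ± 0.28) and Tsc22d3 (0.96 ± 0.24), which encodes the glucocorticoid-induced leucine zipper, also rose (SE, limma, adjusted p = 0.0438 and 0.0491). Each of these 2 calls held in 2 of the 9 fits that leave out a library, and that of Tsc22d3 was lost when library medians were subtracted. Per1 (0.82), Mt1 (0.53) and Nr3c1 itself (0.33) were not called. Tef, a transcription factor of the circadian output, was the 1 gene called of 22 in the circadian clock list, against 0.991% of all genes. Its difference was 1.15 ± 0.28 (SE, adjusted p = 0.035 with limma), and it was called in 3 of the 9 fits that leave out a library. The hour at which mice were killed is not given in the sources used here.

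**Figure D3:**
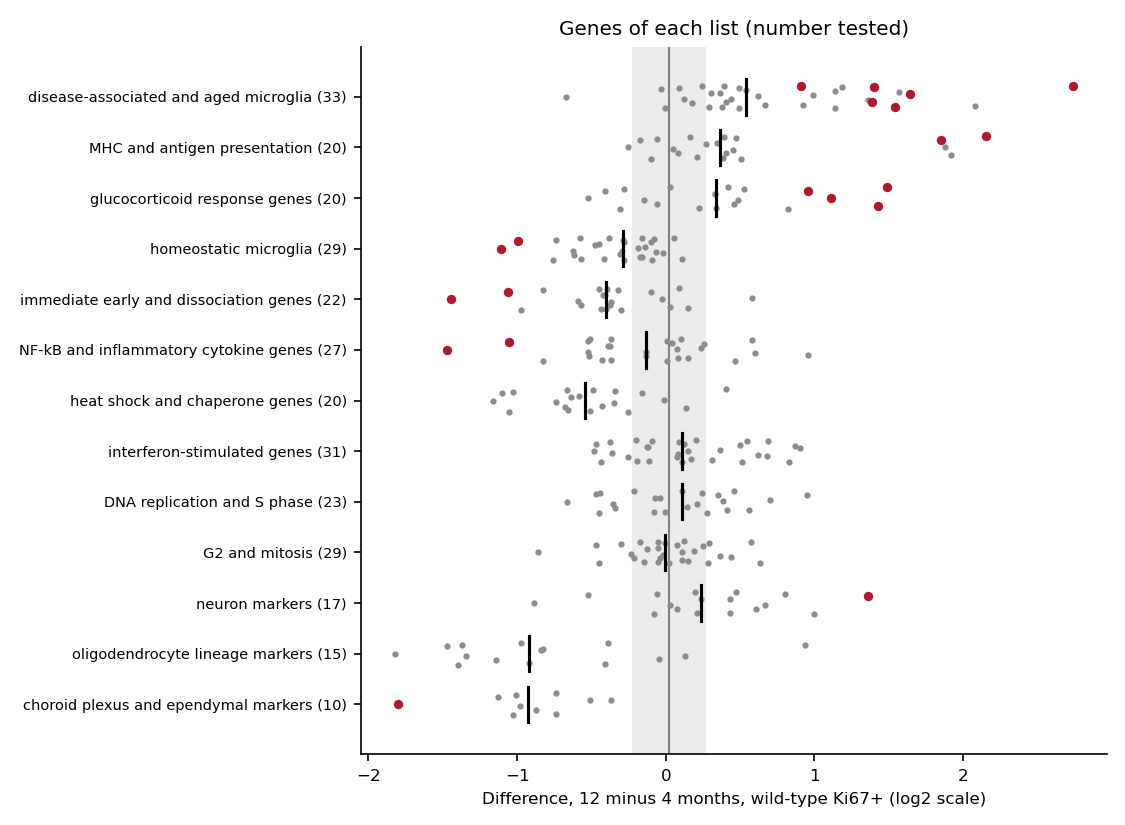
Difference between 12 and 4 months in WT Ki67+ microglia (log2 scale) for each tested gene of 13 lists, with the number tested in parentheses, red points for genes called at an FDR of 0.05, a black bar at the median of the list, and a grey line and band at the median and the middle 50% of all genes. The disease-associated list has 6 red points to the right, and the oligodendrocyte and choroid plexus lists have the lowest medians (-0.92 and -0.93).

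Homeostatic microglial genes moved the other way. Of 29 tested, 0 rose and 2 fell, against 0.515% and 0.476% of all genes. A difference below 0 was found in 27, against 47.4% of all genes, and the median was -0.29. In 13 of the 29 every 12-month library was lower than every 4-month library, against 5.47% of all genes. P2ry13, a receptor for ADP, was 12.82, 12.72, 12.94, 12.45 and 12.57 at 4 months and 11.60, 11.62, 11.73 and 11.42 at 12 months. It showed little spread within either age and fell by 1.11 on the log2 scale (SE 0.19, adjusted p = 0.00394 with limma). P2ry12, the ADP receptor that directs microglial processes to injury, was 14.36, 14.26, 14.30, 13.71 and 14.18 at 4 months and 13.22, 13.30, 13.25 and 12.92 at 12 months. It fell by 0.99 on the log2 scale (SE 0.22, adjusted p = 0.0214 with limma), and the call was lost without 12-month replicate 1 or replicate 4 (highest adjusted p 0.057). Cx3cr1 (-0.58), Tmem119 (-0.57), Olfml3 (-0.74), Gpr34 (-0.76) and Csf1r (-0.47) had separate groups and were not called (limma, adjusted p 0.152, 0.226, 0.105, 0.125 and 0.206). The transcription factor Sall1 (0.11), which holds the microglial identity, had overlapping values.

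Nr4a1 and Egr1, immediate early genes that respond to stimulation within minutes, were lower at 12 months. Of 22 immediate early and dissociation genes, 0 rose and 2 fell, against 0.515% and 0.476% of all genes, with a median difference of -0.40. Nr4a1 was 10.90, 11.14, 11.78, 11.47 and 11.90 at 4 months and 10.01, 10.04, 9.62 and 10.31 at 12 months, a fall by 1.44 on the log2 scale (SE 0.25, adjusted p = 0.00394 with limma). Egr1 fell by 1.06 (SE 0.26, adjusted p = 0.0392 with limma), in 3 of the 9 fits that leave out a library. Fos (-0.59), Jun (-0.10) and Atf3 (-0.57) were not called. Cell isolation is known to raise these genes. Heat shock and chaperone genes, a further sign of handling, had a median difference of -0.55. Of 20, 0 were called by limma and 6 had an unadjusted p under 0.05, against 13.4% of all genes. The mean of the heat shock list ranged from 10.66 to 11.73 over the 4-month libraries and from 10.40 to 10.66 over the 12-month libraries, and the part of handling in the fall of Nr4a1 and Egr1 was not tested.

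Among 27 NF-kB and inflammatory cytokine genes, 0 rose and 2 fell, against 0.515% and 0.476% of all genes, with a median of -0.13. The cytokine Il1a was 11.28, 11.35, 11.76, 11.74 and 12.23 at 4 months and 10.14, 10.28, 10.37 and 10.02 at 12 months. Its groups were about 1 log2 unit apart at their nearest libraries, and it fell by 1.47 on the log2 scale (SE 0.29, adjusted p = 0.0104 with limma). The adhesion molecule Icam1 fell by 1.06 (SE 0.26, adjusted p = 0.035 with limma), in 3 of the 9 fits that leave out a library. Il1b (-0.43), Tnf (-0.37) and Ccl2 (-0.83) were not called, and their values overlapped.

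The genes with the lowest p among those that fell included genes of motile cilia, which ependymal and choroid plexus epithelial cells carry and microglia do not. Sntn, a protein of the tip of motile cilia, was 7.55, 6.62, 7.42, 7.53 and 7.79 at 4 months and 5.90, 5.82, 5.88 and 5.90 at 12 months, a fall by 1.51 on the log2 scale (SE 0.25, adjusted p = 0.00394 with limma). Tmem212, an ependymal marker, was 7.97, 7.96, 8.46, 8.22 and 8.36 at 4 months and 6.41, 6.26, 5.94 and 6.95 at 12 months, a fall by 1.80 (SE 0.32, adjusted p = 0.00394 with limma). Both genes were low in every 12-month library. Of 10 choroid plexus and ependymal markers, 1 fell and 0 rose, against 0.476% and 0.515% of all genes. All 10 had a difference below 0, against 47.4% of all genes, and the median was -0.93. Of the 61 genes that fell, 15 are parts of the axoneme or of ependymal cells by their known roles, a grouping made after their values were seen. They included the outer arm dynein Dnah5 (-1.36), the inner arm dynein Dnah10 (-1.02), the intermediate chain Dnaic1 (-1.24), Cfap52 (-1.12) and Spag16 (-0.82), and their means were 7.06 to 8.22 at 4 months. At 12 months their means were 5.7 to 7.09. All but Nme5 (7.09) were under 7 there and were tested only through their level at 4 months, where they are high. In all 9 fits that leave out a library 10 of the 15 were called, while Dnaic1 was called in 5 and Spag16 in 3. Those fits keep the same tested genes and so do not test the filter. How many of all tested genes have such roles was not counted. Of 40 tested genes with an axoneme symbol stem, a list also added after the calls were seen, 4 fell and 0 rose, 29 had a difference below 0 and the median was -0.32. Of these 40, 16 were tested only through their level at 4 months and 3 only through that at 12 months, so the filter itself favours falls in this count and nothing is read from it.

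The promoter window of Sntn is shown because it has the lowest p of the cilium genes and because ciliary genes are known targets of RFX factors. It lies at chr14:13670626-13670925 on the plus strand of GRCm38.p6 (RefSeq), with 250 bases before the start and 50 after it, and capitals mark GTTGCCATG, letters of an RFX site.
Sntn: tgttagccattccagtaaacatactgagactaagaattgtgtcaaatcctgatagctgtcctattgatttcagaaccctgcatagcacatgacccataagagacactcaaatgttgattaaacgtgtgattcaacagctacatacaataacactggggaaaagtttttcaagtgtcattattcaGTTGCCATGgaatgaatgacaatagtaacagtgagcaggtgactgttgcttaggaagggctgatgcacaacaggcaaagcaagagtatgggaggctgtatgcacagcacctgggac
The letters start 66 bases before the start. On both strands they were present in 1 of 14 windows of the 15 genes (12 of which had a window) and in 0.773% of all windows.

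Markers of other brain cells moved with age to different degrees. Among 15 oligodendrocyte lineage markers 0 were called by limma and 10 had an unadjusted p under 0.05, against 13.4% of all genes. In this list 13 had a difference below 0, against 47.4% of all genes. The median of these markers was -0.92, with Mal at -1.47, Mbp at -1.40 and Mog at -1.37. Their mean level was 8.15 to 9.25 in the 4-month libraries and 7.62 to 8.15 in the 12-month libraries. For the choroid plexus and ependymal list the mean level was 9.07 to 10.02 at 4 months and 8.14 to 8.85 at 12 months, and its defining transcript Ttr had a mean of 15.74 and 15.38. The cilium genes were picked from genes that fell, and they share Tmem212 with the choroid plexus and ependymal list. Nothing is therefore read from their moving the same way as these lists. The part of other cells or free RNA in the calls was not tested.

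Of 17 neuron markers tested, 1 rose and 0 fell, against 0.515% and 0.476% of all genes. In this list 13 had a difference above 0, against 52.6% of all genes, and the median was 0.23. The mean levels of the list overlapped between the ages, at 7.62 to 8.34 at 4 months and 8.13 to 8.43 at 12 months. Slc17a7, the vesicular glutamate transporter of excitatory neurons, was 6.45, 6.94, 7.99, 7.44 and 6.95 at 4 months and 8.51, 8.11, 8.62 and 8.82 at 12 months. It rose by 1.36 ± 0.30 (SE, adjusted p = 0.021 with limma), and was not called without 12-month replicate 1, 3 or 4. Among the 66 genes that rose, 12 are known mainly from neurons, again grouped after their values were seen. They include the adhesion receptor Adgrb1 (1.30 ± 0.20 SE, adjusted p = 0.00237 with limma), the cortical transcription factor Tbr1 (0.90), the potassium channel subunit Kcnf1 (1.11), the metabotropic glutamate receptor Grm8 (0.94) and the endocytic adaptor Pacsin1 (1.35). Their differences were 0.75 to 1.36 and their means at 4 months 6.34 to 7.94. Tbr1 (6.89), Kcnf1 (6.54), Grm8 (6.34), Nxph4, Syndig1 and Clstn2 were under 7 at 4 months and were tested only through 12 months, where they are high. How many of all tested genes are known mainly from neurons was not counted, so nothing is read from the count of 12. Of the 12, 4 were called in all 9 fits that leave out a library, and Pacsin1 in 2. Defining neuronal transcripts such as Snap25 (-0.06), Tubb3 (0.03) and Meg3 (0.19) overlapped between the ages. Astrocyte markers had a median of 0.26, border macrophage markers of 0.28, endothelial and mural markers of -0.11 and blood leukocyte markers of 0.02, each with 0 called by limma and 2, 0, 3 and 0 genes, in that order, at an unadjusted p under 0.05.

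**Figure D4:**
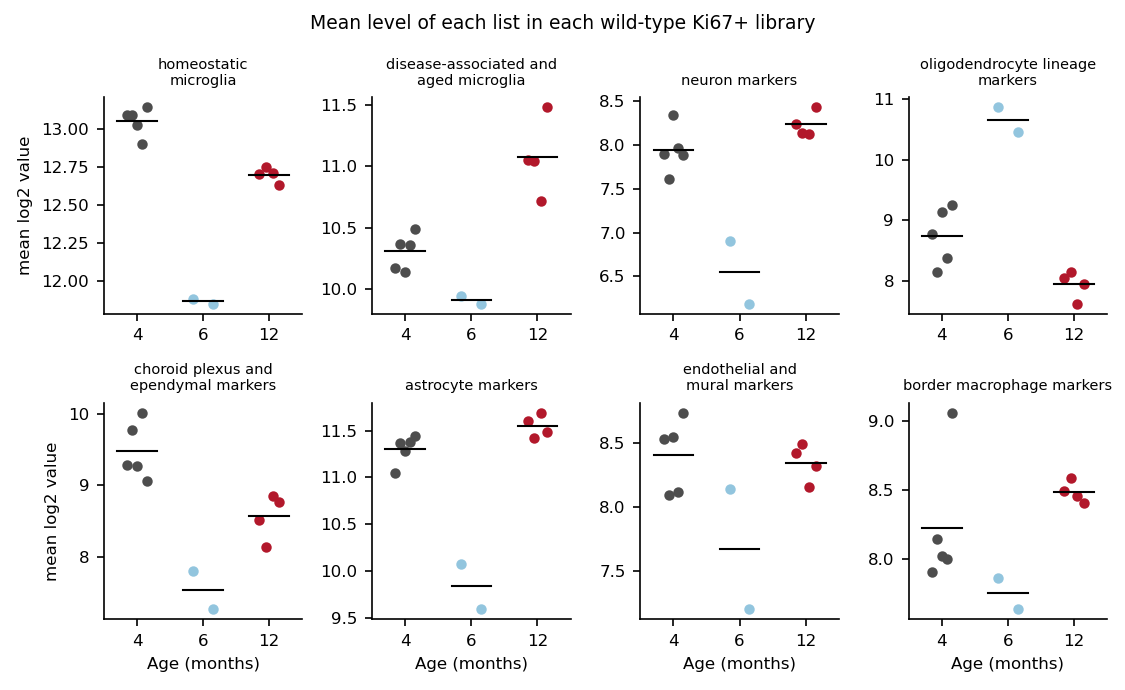
Mean log2 value of the tested genes of 8 lists in each WT Ki67+ library at 4 (n = 5), 6 (n = 2) and 12 months (n = 4), with a bar at the group mean and a vertical axis of its own in each panel, not starting at 0. The 12-month libraries lie below the 4-month libraries for the homeostatic and choroid plexus lists, above them for the disease-associated list, and overlap them for neuron and border macrophage markers, and the 6-month libraries lie apart from both ages in several panels.

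Cell cycle genes did not separate the ages, although the cells were sorted for a cycle marker. Of 23 genes of DNA replication and S phase 0 were called (median 0.11), and of 29 genes of G2 and mitosis 0 were called, with 14 above 0 and 15 below. At an unadjusted p under 0.05 (limma) there were 2 genes in each of these lists, against 13.4% of all genes. The replication gene list had mean levels of 7.77 to 8.15 at 4 months and 7.87 to 8.21 at 12 months, so the ages overlapped. The G2 and mitosis list had mean levels of 7.31 to 8.35 at 4 months and 7.81 to 8.14 at 12 months. Its lowest level, in 4-month replicate 3, lay within the range of 6.89 to 7.36 of the WT Ki67- libraries of 4 months. Timeless, a replication fork gene that was in neither list, fell by 0.95 on the log2 scale (limma, adjusted p = 0.0438), named after its value was seen, and was called in 2 of the 9 fits that leave out a library. The lists of ribosomal proteins (40 tested, median 0.27), oxidative phosphorylation (40, median 0.02), lysosomal enzymes (35, median 0.07), interferon-stimulated genes (31, median 0.11), proteasome subunits (30, median -0.04) and complement genes (17, median -0.30) held 0 called genes (limma). At an unadjusted p under 0.05 (limma) they held 3, 1, 2, 5, 1 and 4 genes, in that order, against 13.4% of all genes. A difference above 0 was found in 37, 20, 22, 19, 13 and 3 genes, in the same order, against 52.6% of all genes. Axl was the 1 gene called of 26 phagocytic and Fc receptors (median -0.02). Lpl was the 1 called of 26 genes of cholesterol efflux and lipid handling (median 0.18). Over all genes 0.991% were called, and Axl and Lpl were already counted in the disease-associated list. Ddx3x, an RNA helicase, was 11.24, 11.27, 11.53, 11.30 and 11.78 at 4 months and 10.74, 10.61, 10.76 and 10.60 at 12 months. These groups did not overlap, and the difference of -0.75 ± 0.23 (SE) was not called (limma, adjusted p = 0.112), with reads that may be shared with its Y-linked copy.

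Other named genes have varied roles. Cpxm2, a secreted carboxypeptidase-like protein, was 6.71, 6.67, 6.92, 6.86 and 6.54 at 4 months and 7.87, 7.79, 7.89 and 7.98 at 12 months, and had the lowest p of all genes (1.14 ± 0.17 SE, adjusted p = 0.00237 with limma). The membrane protein Tmem130 (1.45), the basement membrane collagen Col4a5 (1.31) and the leucine-rich repeat protein Lrrc38 (1.05) also rose. The collagen receptor Ddr2 (-1.30), the matrix protein Fbln7 (-1.35), Mia (-1.55), Triqk (-1.32) and Tmeff2 (-1.62) fell (limma, adjusted p at most 0.0255). Except for Tmeff2, these genes were called in all 9 fits that leave out a library. All of them, Tmeff2 included, had a mean under 7 at the age where they were lower, from 5.69 (Triqk, 12 months) to 6.85 (Tmem130, 4 months). They were thus tested only through the age where they are high. The fits that leave out a library keep the same tested genes and do not test this. Spata2l (1.33) and Zfp462 (0.84) rose, and Map6d1 (-1.52), Lcmt1 (-1.24) and Atg4c (-1.04) fell with adjusted p-values from 0.0321 to 0.048 (limma), each of these 5 in 1 to 6 of the 9 fits. Zfp462, Map6d1 and Atg4c were also tested only through the age where they are high.

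The 2 libraries of 6 months were not part of the test. They were not between the ages for many of the genes above. H2-Aa was 7.88 and 8.55, far below both ages, P2ry13 was 11.22 and 11.04 and Cx3cr1 12.39 and 12.30, below both ages, while Cpxm2 (7.81 and 7.49) was near the 12-month level. Homeostatic genes had a mean of 11.85 to 11.88 there and oligodendrocyte lineage markers a mean of 10.46 to 10.87, above both other ages. No trend over age can therefore be drawn from these libraries.

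In Ki67- microglia of WT mice, P2ry13 and P2ry12 had differences between 12 and 4 months of -1.16 ± 0.21 and -1.07 ± 0.24 (SE), close to those in Ki67+ microglia, and Nr4a1 one of -1.41 ± 0.28. Fkbp5 (0.86), Zbtb16 (0.86), Mt2 (1.21) and Tsc22d3 (1.45) were also above 0 there. The disease-associated genes had a median of -0.19 in Ki67- microglia, with Lpl at -0.97 ± 0.36, Axl at -0.38 ± 0.33, Ank at -1.35 ± 0.38 and Cst7 at 0.83 ± 0.52 (SE). H2-Aa was -0.37 ± 0.49 and Tmem212 was 0.40 ± 0.35. The age difference itself differed between Ki67+ and Ki67- microglia for 468 genes, 305 positive and 163 negative (limma, FDR 0.05, which was 3.65%, 2.38% and 1.27% of the genes tested), and 38 of these were among the 127. Both sets of genes rest on the same WT Ki67+ age difference, so part of this overlap is built in. With library medians subtracted the count was 426, of which 49.8% were positive against 65.2% without.

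This comparison with Ki67- microglia rested on 3 libraries at 12 months that hardly differed from one another. Their median SD of a gene was 0.0328, against 0.187 in Ki67+ libraries at 12 months and 0.333 at 4 months, and whether they are 3 independent samples cannot be read from the values. Counted as 1 sample, an alternative added after the data were seen, they left 6 genes with a different age effect, none of them among the 127, and 28 in place of 1605 genes called within Ki67- microglia (12.5% of the genes tested, 5.27% higher and 7.26% lower), while the 127 calls in Ki67+ microglia were the same genes. Lpl and Ank, with differences of 2.61 and 2.74 between the populations, then had an adjusted p of 0.118 (limma), and H2-Aa (2.52) one of 0.311.

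In Ki67+ microglia of APP/PS1 mice, which share no library with those of WT mice, the disease-associated list had a median difference between 12 and 4 months of 1.42, against 0.54 in WT. Cst7 was 2.73 ± 0.51 (SE) there and 2.74 ± 0.48 in WT, and Lpl 1.42 ± 0.35 and 1.64 ± 0.33. For Cst7 the age effects differed by 0.01 ± 0.70 (SE, limma, adjusted p = 0.998) and for Lpl by 0.23 ± 0.48 (SE, limma, adjusted p = 0.874). The 95% interval of the difference was -1.42 to 1.44 for Cst7 and -0.75 to 1.21 for Lpl. P2ry12 fell by 0.99 in both genotypes. Within APP/PS1 751 genes were called (5.86%, with 2.94% higher and 2.92% lower), and 15 of the 127 were among them, 12 with the same sign.

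The glucocorticoid response genes Fkbp5, Tsc22d3 and Zbtb16 differed between the genotypes in their age effect. Fkbp5 was -1.04 ± 0.31 (SE) in APP/PS1 against 1.49 ± 0.30 in WT, a difference of 2.52 ± 0.43 (SE, limma, adjusted p = 0.00423). Tsc22d3 was -1.24 ± 0.26 against 0.96 ± 0.24, a difference of 2.2 ± 0.35 (SE, limma, adjusted p = 0.00294), and Zbtb16 -0.35 ± 0.32 against 1.43 ± 0.30 (SE, adjusted p = 0.0391 with limma). The other 17 of the 20 genes of the list did not pass this test, and the median of the list was 0.34 in WT Ki67+, 0.71 in WT Ki67- and -0.35 in APP/PS1 Ki67+ microglia. Markers of other cells moved in the same directions, with medians of 0.26, 0.57 and -0.65 for astrocyte markers and of 0.28, 0.59 and -0.30 for border macrophage markers, and their part in the result was not tested. In H2-Aa (-0.09 ± 0.48 in APP/PS1) and H2-Ab1 (0.09 ± 0.40) the genotypes differed by 2.24 ± 0.66 and 1.76 ± 0.55 (SE) without passing the test (limma, adjusted p = 0.0862 and 0.11). Over all genes the age effect differed between genotypes for 143 genes (87 positive and 56 negative, which was 1.12%, 0.679% and 0.437% of the genes tested), of which 28 were among the 127. The WT Ki67+ age difference enters both sets, so part of this overlap is built in too.

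**Figure D5:**
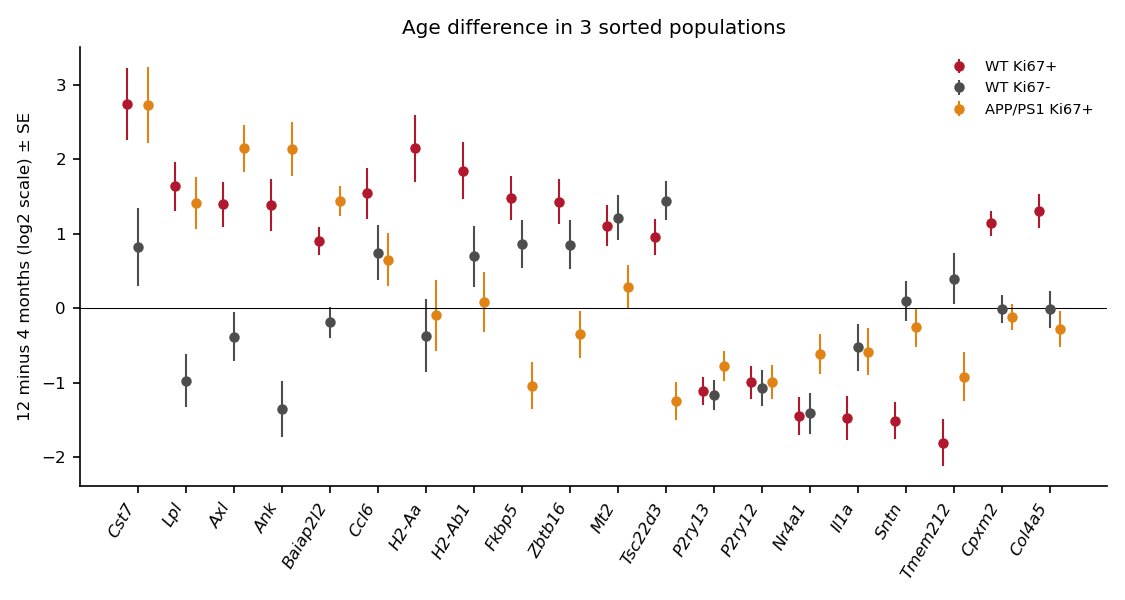
Difference between 12 and 4 months (log2 scale, points) with its SE (bars) for 20 genes in WT Ki67+ (red, 4 and 5 libraries), WT Ki67- (grey, 3 and 5) and APP/PS1 Ki67+ microglia (orange, 4 and 4). P2ry13 and P2ry12 lie below 0 in all 3 populations, Cst7, Lpl, Axl, Ank and Baiap2l2 lie well above 0 in both Ki67+ populations, and Fkbp5, Zbtb16 and Tsc22d3 lie above 0 in both WT populations and below 0 in APP/PS1.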

How the data were processed

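RNA from sorted Ki67+ and Ki67- microglia of WT and APP/PS1 mice was sequenced in 42 libraries of 12 groups. The authors demultiplexed reads with bcl2fastq 2.20, quantified read 1 with kallisto 0.43.1 on GRCm38, normalized counts with DESeq2, and corrected them for batch. The name of the supplementary sheet with the same values points to 10 surrogate variables removed, and 10 residual directions are missing from the values, which lie on a log2 scale. The deposited values are therefore adjusted log2 values and are recorded here as a score, not as counts. Depth is unknown, and 0 columns were left without a sample. Because the adjustment protected the 12 groups, p-values favour differences between them.

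Group means over all libraries were fitted with limma 3.58.1 in R 4.3.3. The 10 missing residual directions were counted as spent, which left 20 residual degrees of freedom (prior 8.94). The Benjamini-Hochberg adjustment covered 12813 genes, with calls at an FDR of 0.05, and 6338 genes under the minimum mean of 7 were left out. Single values were compared with exact permutation tests over 126 assignments. Interactions compared age effects between populations. Figures and tables were made in Python. Promoters came from RefSeq, and 92 of the 127 called genes matched a window.

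The members, the gene lists and the tests were chosen with earlier results of these data known. Genes named were, in each direction, the 6 with the lowest p and the 6 with the largest difference among called genes without overlap (predicted genes and olfactory or vomeronasal receptors left out), up to 5 called genes of each list with members compared to them, up to 4 genes per direction called for an interaction and for age, and 8 set genes. Others were named after their values were seen, and some genes that meet the rule are not reported here. Alternatives were other filters, scalings and variance settings, a fit to the 9 libraries, and each library left out.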

Additional observations from a re-analysis of the deposited data

Results flagged for a closer look

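In 5 of 88 groups of 4 or more libraries tested, 1 library lay far from the others, and chance alone gives about 1 in 20. All 5 were 4-month WT Ki67+ libraries: Tmeff2 was 6.336 in replicate 2, Map6d1 8.259 in replicate 1, P2ry12 13.71 in replicate 4, Mki67 6.734 in replicate 3 and Apoe 14.66 in replicate 1.

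In WT mice the age effect of Ki67+ microglia differed from that of Ki67- microglia (limma, FDR 0.05) for 17 of the 44 named genes. It was more positive in Ki67+ microglia for Ank (2.74), Lpl (2.61), H2-Aa (2.52), Spata2l (2.46), Tmem130 (1.81), Axl (1.78), Col4a5 (1.32), Cpxm2 (1.15) and Baiap2l2 (1.1). It was more negative for Tmem212 (-2.2), Lcmt1 (-2.16), Mia (-2.04), Map6d1 (-1.88), Atg4c (-1.85), Sntn (-1.6), Ddr2 (-1.42) and Fbln7 (-1.24). None of these 17 passed the test once the 3 nearly equal Ki67- libraries of 12 months were counted as 1. Up to 4 genes per direction were named because they were called for this same difference. The count of 17 is therefore partly fixed by that choice, and over all genes tested the share was 3.65%.

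Between WT and APP/PS1 Ki67+ microglia the age effect differed (limma) for 10 of the 44 named genes. It was more positive in WT for Fkbp5 (2.52), Tsc22d3 (2.2), Zfp462 (1.9), Zbtb16 (1.78), Col4a5 (1.58) and Cpxm2 (1.26), and more negative for Map6d1 (-2.66), Triqk (-1.84), Ddr2 (-1.46) and Fbln7 (-1.32).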

How the results depend on the processing

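The 127 genes called (66 higher, 61 lower) became 254 (127 and 127) with all genes of the table, 48 (31 and 17) with a minimum mean of 8, 808 (432 and 376) in the 9 libraries alone and 932 (519 and 413) with the removed directions not counted as spent. The fit to the 9 libraries alone could not count all 10 removed directions as spent either. Leaving out 1 library gave 42 to 145 (19 to 79 higher, 23 to 66 lower), with the lowest counts without 12-month replicate 1 (42), 2 (58) and 3 (76). The 468 genes that differed between Ki67+ and Ki67- microglia (305 and 163) became 6 (6 and 0) with the 12-month Ki67- libraries averaged and 2078 (1241 and 837) with the directions not counted as spent, and 145 to 542 (101 to 347 and 44 to 195) without 1 library. The 143 that differed between genotypes (87 and 56) became 1230 (700 and 530) and 75 to 213 (49 to 131 and 24 to 82) under the last 2 settings. The causes were not tested. Subtracting library medians moved the positive share of the genes differing between Ki67+ and Ki67- microglia from 65.2% to 49.8%, and leaving out 4-month replicate 1 moved the share of higher calls from 52% to 45.3%. Of 697 values of named genes and list medians under the alternatives, 1 changed sign. It was the median of the G2 and mitosis list (from -0.0031 to 0.00331 with library medians subtracted). Other filters, other variance settings and the fit to the 9 libraries alone leave the difference of a gene as it is. For those values the sign could not change, and only leaving out a library or subtracting medians could change it. No paired analysis was possible because the labels give no replicate numbers that link libraries across groups. Depth is unknown, and genes near the minimum mean are the least certain.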
